A study of Mus musculus with 24 samples.

Results

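The genes described here encode the proteins of the mitochondrial ribosome. They were chosen by symbol alone, as Mrpl or Mrps followed by a number, with or without a final a, b or c, and by a mean of at least 1 CPM (counts scaled to a common library size) over all libraries. Of the 24982 gene symbols counted, 78 met both conditions. None of the matching symbols fell below the minimum, the closest to it being Mrps6 with a mean of 8.95 CPM, Mrps22 with 15.7 CPM and Mrpl47 with 17 CPM. All 78 also passed the filter on low counts and were tested among 12743 genes.

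The RNA came from eosinophils of the bone marrow of wild type C57BL6 mice, separated on a cell sorter into maturation stages I, II, III and IV. The mice had either received 400 ng of interleukin 33 (IL-33), a cytokine that drives the accumulation of eosinophils, into the peritoneum each day for 7 days, or were in steady state, for which the labels name no vehicle injection. Each of the 8 groups (IL-33 stages I, II, III and IV, and steady state stages I, II, III and IV) held 3 libraries, and each library came from cells pooled from 3 mice. The cells carried no genetic change, and the mice's age and sex are not stated. Cells positive for CD45R, NK1.1, CD90.2 or Ly6G had been removed first. The sort then used CD117, CD55 and CD200R3 together with Siglec-F, F4/80, Pir-A/B and CD29.

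The mitochondrial ribosome translates the few messenger RNAs encoded by mitochondrial DNA, which specify core subunits of the respiratory chain and of ATP synthase. Its RNAs are encoded in the mitochondrion, but every one of its proteins is encoded in the nucleus, made on cytosolic ribosomes and imported. Its small subunit reads the messenger RNA and its large subunit forms the peptide bonds, and both hold proteins with bacterial counterparts beside others found only in mitochondria. Eosinophil precursors divide and make their granule proteins before they leave the cell cycle and mature. Among the 78 genes, 51 encode proteins of the large subunit and 26 of the small subunit, 48 of these 77 with a bacterial counterpart and 29 without. Mrps30 and Mrps18a stand among the large subunit genes, because their proteins sit there despite the names. Mrps36 belongs to neither, since its protein is a component of the 2-oxoglutarate dehydrogenase complex.

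Gene counts per library ranged from 8335138 to 14909453. Reads in no annotated gene made up 9.19% to 16.6% of the counted reads in IL-33 libraries and 17.8% to 30.5% in steady state libraries, so the condition and this share cannot be told apart. The second IL-33 stage I library stood apart, with a summed level of 12252 CPM over the 78 genes against at most 7168 CPM in the other 23 libraries, and it also held the highest sums of cytosolic ribosomal protein genes (53081 CPM) and of nuclear oxidative phosphorylation genes (29442 CPM). The 4 steady state libraries numbered 3, called the third steady state pool here, with no label stating shared mice, had 3331 to 5018 CPM of the early response gene Jun, against 875 to 2142 CPM in the other 20 libraries. The 10 eosinophil markers looked for (Epx, Prg2, Siglecf and others) summed to 22454 CPM or more in every IL-33 library, and to 23733 CPM or more in every steady state library of stages I to III, but to 4635 to 7655 CPM in steady state stage IV. Tpsb2 of mast cells, Cd8a of T cells and the haemoglobin genes Hba-a1, Hba-a2, Hbb-bs and Hbb-bt were listed at 0 in all libraries. Other markers of these cell types were present. Basophil and mast cell markers summed to 2461 to 3507 CPM in steady state stage I, 139.5 to 816.8 CPM in steady state stage IV and 2009 to 2970 CPM in IL-33 stage IV. Lymphoid markers summed to 734 to 1155 CPM in steady state stage I, 45.4 to 60.6 CPM in steady state stage IV and 678 to 1180 CPM in IL-33 stage I. The 10 neutrophil markers summed to 2303 to 9707 CPM in steady state stage I and 15983 to 25326 CPM in stage II. In stages III and IV they summed to 18728 to 22876 and 9257 to 25450 CPM. Under IL-33 the ranges were 1605 to 6538, 1246 to 3906, 2639 to 3857 and 5817 to 9926 CPM in stages I to IV. The part of the cells carrying these markers in the differences between stages was not tested.

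Levels of the 78 genes were spread widely around a common middle. Expressed per kilobase (kb) of the principal transcript, Mrpl33 stood first with a mean of 665 CPM per kb, followed by Mrps21 with 231 and Mrpl41 with 175 CPM per kb. The lowest were Mrps5 with 7.67, Mrps25 with 5.95 and Mrpl47 with 5.06 CPM per kb. The genes lie on 17 chromosomes, and 42 of them overlap another annotated gene, 36 of them on the opposite strand. Whether reads in such overlaps were counted or set aside as ambiguous is not given. Strand was not kept in these libraries, and reads of such pairs cannot be told apart where the genes overlap. This applies to Mrps27 (overlapping 6430562O15Rik), Mrps28 (Gm15466 and Gm15467), Mrpl12 (Gm16755), Mrps18b (Gm16279), Mrpl45 (Gm11594), Mrpl58 (Ict1os), Mrpl47 (Actl6a and Ndufb5), Mrps6 (Slc5a3, Gm16310 and Gm49711, on the same strand) and Mrpl33 (Rbks and Gm43809).

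As a sum, the 78 genes had a lower mean at each later stage under IL-33 and no such order in steady state. Under IL-33, summed levels averaged 8458 ± 3341, 5744 ± 380, 5197 ± 469 and 4855 ± 699 CPM in stages I, II, III and IV (SD, n = 3 each). The other 2 IL-33 stage I libraries, without the second, had 5955 and 7168 CPM. In steady state they averaged 5261 ± 658, 4407 ± 514, 4372 ± 816 and 5152 ± 731 CPM in the same order (SD, n = 3 each). As a percent of gene counts, without further scaling, the means were 0.871, 0.603, 0.534 and 0.422 under IL-33. In steady state these percents were 0.627, 0.474, 0.368 and 0.482. Without Mrpl33 the sums averaged 8206, 5555, 4981 and 4343 CPM under IL-33 and 5053, 4220, 3993 and 4553 CPM in steady state. The plot of summed levels sets the 78 genes beside the cytosolic ribosomal protein genes and the nuclear oxidative phosphorylation genes. In a bulk sample, less RNA per cell and fewer cells that carry it cannot be told apart.

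**Figure D1:**
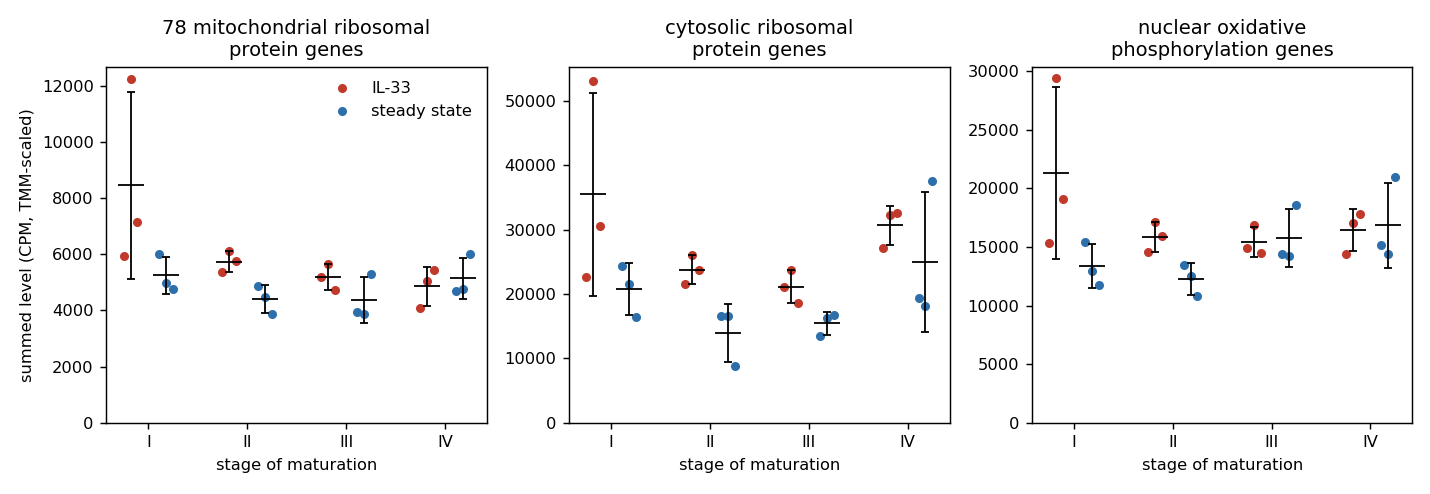
Summed levels (CPM scaled by TMM, linear axes from 0) of the 78 mitochondrial ribosomal protein genes, the 77 cytosolic ribosomal protein genes and the 78 nuclear oxidative phosphorylation genes by stage, IL-33 in red left of steady state in blue. Points are libraries and bars give mean ± SD (n = 3); the second IL-33 stage I library lies highest in all 3 panels, at 12252 CPM in the first.

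From stage to stage in steady state a minority of the genes changed, and mostly at the passage into stage III. Between stages II and I no gene of the 78 passed the test (edgeR, adjusted p under 0.05), against 3.58% of all tested genes higher and 1.29% lower. An unadjusted p under 0.05 was reached by 1 higher and 7 lower members, with no share over all tested genes given for that threshold. For 19 of the 78 members all 3 stage II libraries lay below all 3 of stage I, against 10.8% of all tested genes. Between stages III and II, 14 of the 78 fell (17.9%, against 17.4% of all tested genes) and 3 rose (3.85%, against 17.2%), so the share of falls was close to that over all genes. The median log2 fold change of the 78 was -0.14, against 0 over all tested genes.

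The falls at this step were 7 of the 51 large subunit genes and 7 of the 26 small subunit genes. Median log2 fold changes were 0.003 and -0.31 in the same order, and the 3 largest falls by fold were of the small subunit. Mrps2, a core protein of the small subunit with a bacterial counterpart, had 2.19, 0.114 and 5.09 CPM in stage III and 36.3, 23.6 and 15.1 CPM in stage II, a log2 fold change of -3.33 ± 0.61 (SE; adjusted p = 0.000234). No stage III library reached the lowest stage II library, and the lowest value rests on 1 count. Mrps27, a mitochondria-specific RNA-binding protein of the small subunit, had 1.58, 8.92 and 6.58 CPM in stage III and 34.2, 17.2 and 32.2 CPM in stage II (log2 fold change -2.29 ± 0.49 SE, adjusted p = 0.00104). Mrpl12, which forms the stalk of the large subunit that binds translation factors, fell to 22.5, 10.7 and 18.3 CPM in stage III, against 69.8, 88.6 and 34.3 CPM in stage II (-1.90 ± 0.34 SE, adjusted p = 0.0002). The libraries of the 2 stages did not overlap for Mrps27 or Mrpl12 either. Mrps5, near the entry of the messenger RNA channel, fell by 1.60 ± 0.35 on the log2 scale and Mrpl38, a mitochondria-specific protein of the large subunit, by 1.58 ± 0.34 (SE; adjusted p = 0.00108 and 0.00102). The other 9 that fell were Mrps28, Mrps18b, Mrps6, Mrpl16, Mrpl11, Mrpl23, Mrpl44, Mrpl42 and Mrps17, with log2 fold changes between -2.03 (Mrps28) and -0.63 (Mrps17).

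Against this, 3 genes rose between stages II and III in steady state. Mrps21, a small subunit protein, had 129.5, 142 and 171 CPM in stage III and 84.9, 69.7 and 53.1 CPM in stage II (log2 fold change 1.09 ± 0.28 SE, adjusted p = 0.00463). Mrpl33, a short protein of the large subunit, had 317, 360.0 and 462 CPM in stage III and 191, 199.7 and 171 CPM in stage II (1.02 ± 0.26 SE, adjusted p = 0.00422). Stage III libraries lay above stage II libraries throughout for both genes. Mrpl58, a release factor that frees peptides from stalled ribosomes, rose by 0.84 ± 0.30 (SE; adjusted p = 0.0323), a call that was also lost with library totals or relative log expression factors as the scaling. Without the third steady state pool none of these 3 passed the test (adjusted p = 0.0826 for Mrps21, 0.0555 for Mrpl33 and 0.233 for Mrpl58), and 20 members fell. With library totals as the scaling 27 members fell and 2 rose, with all genes shifted by -0.33. No share over all tested genes is given for either fit.

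Promoter sequences are shown for 6 genes of these opposite groups, Mrps2, Mrps27, Mrpl12 and Mrps18b among the falls and Mrps21 and Mrpl33 as the rises, since the members that moved together are a minority of a family whose products end up in 1 complex. They run 5′ to 3′ in the direction of transcription, from 250 bases before to 50 bases after the start of the gene, and come from RefSeq on GRCm38.p6. Capitals mark matches to 6 short motifs searched on both strands, which are those of NRF1 (GCGCANGCG), a known activator of nuclear genes for mitochondrial proteins, of ETS factors (CCGGAAG), of YY1 (AAGATGGC), of NF-Y (CCAAT), of SP1 (GGGCGG) and of E-box factors (CACGTG). The regions were chr2:28467816-28468115 (plus strand) for Mrps2, chr13:99344536-99344835 (plus strand) for Mrps27, chr11:120484387-120484686 (plus strand) for Mrpl12, chr17:35916391-35916690 (minus strand) for Mrps18b, chr3:95871465-95871764 (minus strand) for Mrps21 and chr5:31613701-31614000 (plus strand) for Mrpl33.
Mrps2: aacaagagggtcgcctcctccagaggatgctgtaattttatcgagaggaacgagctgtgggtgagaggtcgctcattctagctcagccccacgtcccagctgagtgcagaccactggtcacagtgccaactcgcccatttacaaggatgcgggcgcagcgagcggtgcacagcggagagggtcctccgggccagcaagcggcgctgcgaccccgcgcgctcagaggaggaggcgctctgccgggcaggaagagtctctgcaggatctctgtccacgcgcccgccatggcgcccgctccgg
Mrps27: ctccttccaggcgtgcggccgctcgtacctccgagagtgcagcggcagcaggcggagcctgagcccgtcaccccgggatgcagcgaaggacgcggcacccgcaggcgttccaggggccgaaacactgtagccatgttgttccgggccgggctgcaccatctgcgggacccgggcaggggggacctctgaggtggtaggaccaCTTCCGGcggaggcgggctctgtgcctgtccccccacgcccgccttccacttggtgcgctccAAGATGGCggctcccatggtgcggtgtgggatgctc
Mrpl12: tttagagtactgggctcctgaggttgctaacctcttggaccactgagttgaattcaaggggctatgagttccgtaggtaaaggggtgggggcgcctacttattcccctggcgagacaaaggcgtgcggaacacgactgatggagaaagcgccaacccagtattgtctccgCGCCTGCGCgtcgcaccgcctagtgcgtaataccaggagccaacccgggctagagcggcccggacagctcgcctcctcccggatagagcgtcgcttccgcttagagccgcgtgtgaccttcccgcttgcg
Mrps18b: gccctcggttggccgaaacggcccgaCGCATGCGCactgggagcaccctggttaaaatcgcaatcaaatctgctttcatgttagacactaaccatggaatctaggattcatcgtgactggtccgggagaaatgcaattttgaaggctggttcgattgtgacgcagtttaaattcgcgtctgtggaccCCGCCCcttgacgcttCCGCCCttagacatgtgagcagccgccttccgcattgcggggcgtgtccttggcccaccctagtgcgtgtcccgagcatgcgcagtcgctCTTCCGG
Mrps21: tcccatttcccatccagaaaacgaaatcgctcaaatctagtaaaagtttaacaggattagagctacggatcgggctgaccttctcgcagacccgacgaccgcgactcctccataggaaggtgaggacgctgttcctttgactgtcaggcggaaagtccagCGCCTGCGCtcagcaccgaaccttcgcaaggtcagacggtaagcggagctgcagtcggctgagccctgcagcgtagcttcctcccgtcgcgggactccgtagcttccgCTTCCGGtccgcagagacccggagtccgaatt
Mrpl33: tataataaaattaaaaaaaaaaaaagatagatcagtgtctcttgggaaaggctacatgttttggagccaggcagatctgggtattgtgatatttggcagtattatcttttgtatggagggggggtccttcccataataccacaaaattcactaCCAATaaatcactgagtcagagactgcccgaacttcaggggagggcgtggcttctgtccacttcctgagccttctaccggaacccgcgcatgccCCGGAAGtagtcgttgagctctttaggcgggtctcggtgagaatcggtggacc

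The Mrps2 window holds 0 matches to the 6 motifs. In the Mrps27 promoter an ETS match begins at position -48, counted from the start of the gene, and a YY1 match spans positions 14 to 21. Mrpl12 and Mrps21 each have an NRF1 match, beginning at -80 and -90, and Mrps18b has one that begins at -224. Of the 78 genes, 69 had a promoter in the RefSeq table, with 75 windows in all. The NRF1 motif stood in 21.3% of these windows, against 6.25% of all 32851 promoter windows of the same length, the ETS motif in 34.7% against 8.86%, and the YY1 motif in 16% against 2.75%. NF-Y (40% against 37.4%), SP1 (52% against 35.7%) and E-box motifs (9.33% against 7.15%) stood closer to the share over all windows. Median G+C content was 58.7% in the members' windows and 52.7% in all windows. Among the 17 windows of members that fell between stages III and II in steady state or between IV and III under IL-33, 3 held the NRF1 motif, 2 the ETS motif and 5 the YY1 motif, against 13, 24 and 7 of the 58 windows of the other members. A match is a description of the letters and not a bound site.

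Between stages IV and III in steady state 5 members rose (6.41%, against 3.55% of all tested genes) and 1 fell (1.28%, against 5.67%). The median log2 fold change was 0.14, against 0.02 over all genes. Mrpl12 was higher, with 45.3, 53.3 and 51.8 CPM in stage IV against 22.5, 10.7 and 18.3 CPM in stage III (log2 fold change 1.54 ± 0.34 SE, adjusted p = 0.00554). Mrpl52, a mitochondria-specific protein of the large subunit, had 16, 24.9 and 24 CPM in stage IV and 5.22, 7.09 and 6.89 CPM in stage III (1.75 ± 0.43 SE, adjusted p = 0.0115). Mrps6, a small subunit protein with the lowest mean level of all members, had 12.6, 7.02 and 8.37 CPM in stage IV and 4.25, 2.06 and 1.06 CPM in stage III (1.93 ± 0.52 SE, adjusted p = 0.0203). For these 3 genes every stage IV library exceeded every stage III library. Mrps24 and Mrps17 rose by 0.93 ± 0.28 and 0.75 ± 0.24 (SE), with adjusted p = 0.039 and 0.0494. Mrpl12, Mrps6 and Mrps17 were among the falls of the step from II to III. Both steps use the same stage III libraries, so those falls and these rises are not independent. Without the third steady state pool the adjusted p of Mrps6, Mrps24 and Mrps17 was 0.0919, 0.0780 and 0.0823. The single fall was in Mrpl45, which holds the large subunit at the inner membrane near its exit tunnel, with 28, 25.1 and 42.7 CPM in stage IV and 89.7, 59 and 157 CPM in stage III (-1.68 ± 0.32 SE, adjusted p = 0.00169). Across the same step 7 of the 10 eosinophil markers fell (median of the 10 on the log2 scale -3.58), and their part in these results was not tested.

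**Figure D2:**
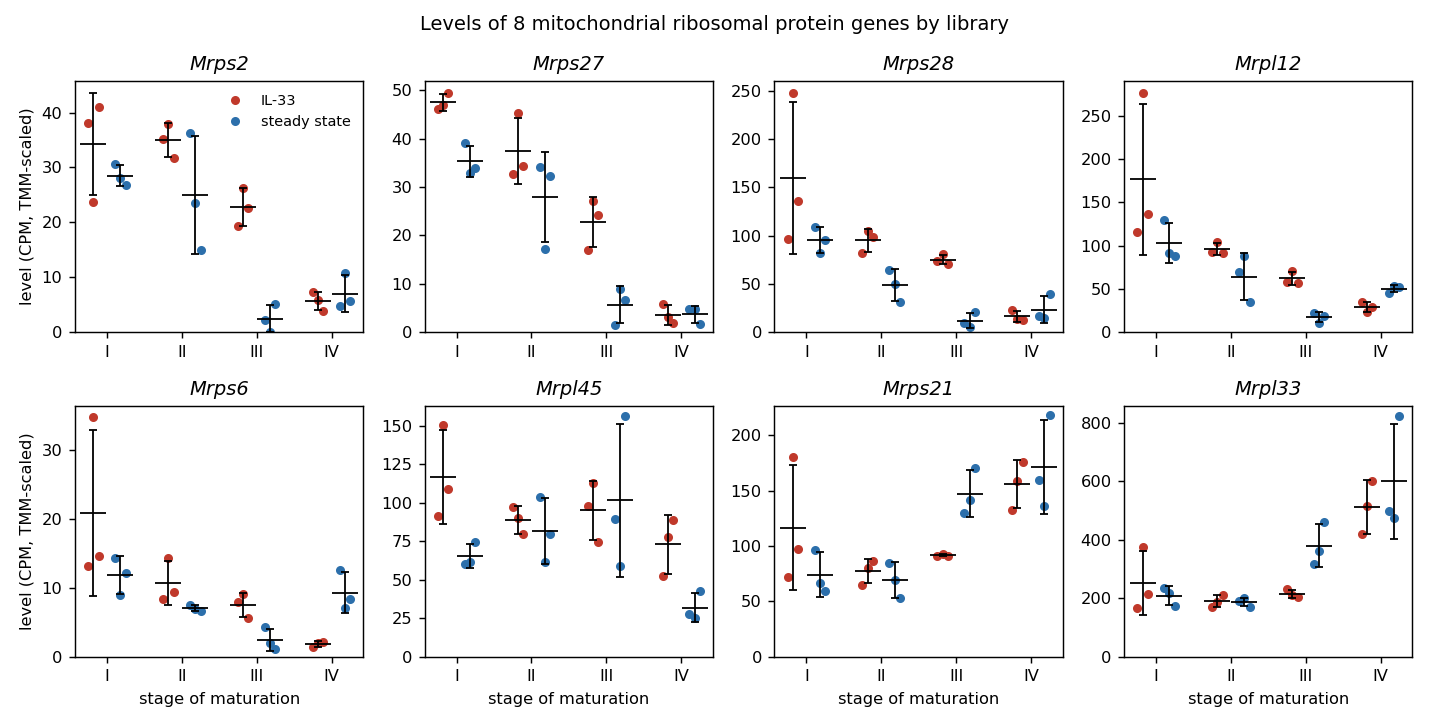
Levels (CPM scaled by TMM, linear axes from 0) of 8 genes by stage, IL-33 in red left of steady state in blue; points are libraries, bars mean ± SD (n = 3). Mrps2, Mrps27 and Mrps28 are low in stage IV under IL-33 and already in stage III in steady state, the 3 stage III libraries having 19.3 to 26.2 CPM of Mrps2 under IL-33 and 0.114 to 5.09 CPM in steady state, while Mrps21 and Mrpl33 run the other way.

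Under IL-33 no member passed the test between stages II and I or between stages III and II. In the first of these steps 10 of all tested genes were called higher (0.0785%) and 2 lower (0.0157%), and in the second 11 higher (0.0863%) and 0 lower (0%). At an unadjusted p under 0.05, 0 members were higher and 30 lower in stage II than in stage I, and 0 in either direction in stage III against stage II. No share over all tested genes is given beside these unadjusted counts. DESeq2 called 1 member in the first step (Mrpl36, lower) and 0 in the second. For 20 of the 78 members the 3 stage II libraries lay below the 3 of stage I, against 8.03% of all tested genes. For 23 of the 78 the 3 stage III libraries lay below the 3 of stage II, against 12.5%. The median log2 fold change was -0.55 in the first step and -0.17 in the second. Without the second IL-33 stage I library the median of the first step was -0.18, and 0 members were higher and 1 lower at an unadjusted p under 0.05.

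The passage from stage III to IV under IL-33 touched many of the genes called at the passage from II to III in steady state, and the 2 steps have no library in common. The overlap of the falls was not above that over all tested genes. Between stages IV and III under IL-33, 15 members fell (19.2%, against 16% of all tested genes) and 2 rose (2.56%, against 13.1%), with a median log2 fold change of -0.30 against 0.01 over all genes. Mrps27 had 5.79, 3.13 and 1.82 CPM in stage IV and 17, 27.2 and 24.2 CPM in stage III (log2 fold change -2.67 ± 0.50 SE, adjusted p = 0.000302). Mrps28, the counterpart of bacterial S1, had 23.3, 13.3 and 13.1 CPM in stage IV and 74.2, 80.5 and 70.8 CPM in stage III (-2.18 ± 0.44 SE, adjusted p = 0.000661). Mrps10, a small subunit protein with a bacterial counterpart, had 10.4, 16.3 and 14.4 CPM in stage IV and 43.9, 51 and 38.2 CPM in stage III (-1.70 ± 0.31 SE, adjusted p = 0.000257). Stage IV lay below stage III in every library for all 3 genes. Mrpl38 and Mrpl37, both of the large subunit and without a bacterial counterpart, fell by 1.81 ± 0.34 and 1.38 ± 0.27 on the log2 scale (SE; adjusted p = 0.00032 and 0.000541). Mrps18b, one of the 3 mammalian relatives of bacterial S18, fell by 1.82 ± 0.38, and Mrpl12 by 1.07 ± 0.33 (SE; adjusted p = 0.000783 and 0.0182).

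The rises under IL-33 were again Mrpl33 and Mrps21. Mrpl33 had 418, 514 and 602 CPM in stage IV and 232, 211 and 204 CPM in stage III (log2 fold change 1.25 ± 0.26 SE, adjusted p = 0.000927). Mrps21 had 132, 159 and 175 CPM in stage IV and 91.4, 92.4 and 90.6 CPM in stage III (0.77 ± 0.28 SE, adjusted p = 0.0429), and its call was lost in 12 of the 30 alternative fits, library totals among them. Both genes were higher in every stage IV library than in any of stage III. Of the 15 falls under IL-33 and the 14 in steady state, 8 were the same genes (53.3% and 57.1%), namely Mrpl12, Mrpl38, Mrps2, Mrps5, Mrps6, Mrps18b, Mrps27 and Mrps28. Over all tested genes, 67.2% of the falls under IL-33 and 61.9% of those in steady state were shared, so the overlap of the members was not above that of other genes.

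**Figure D3:**
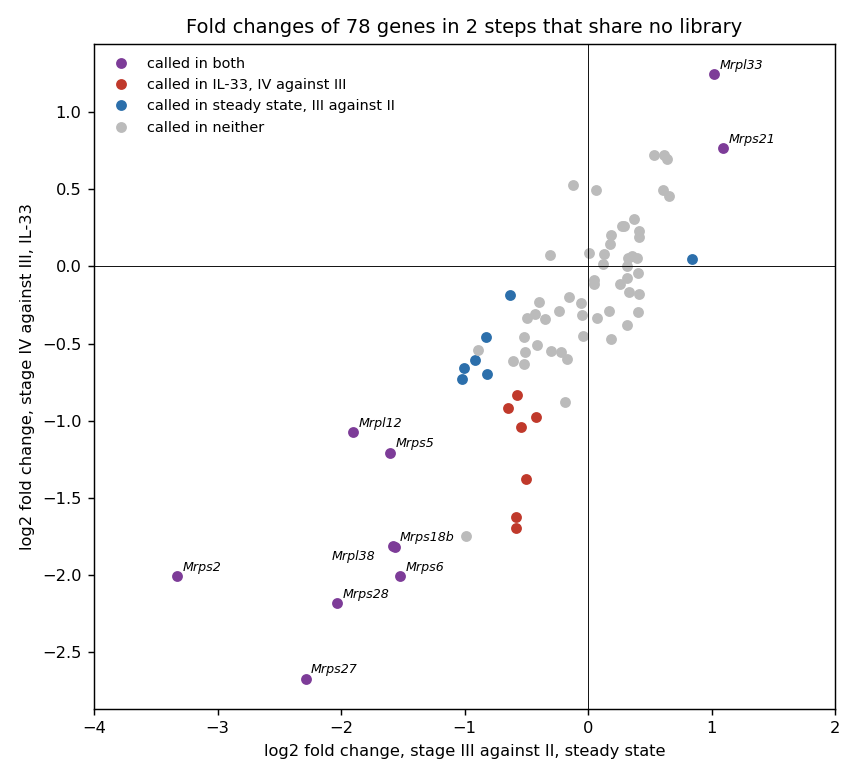
Log2 fold changes of the 78 genes between stages IV and III under IL-33 (vertical) and between stages III and II in steady state (horizontal), 1 point per gene. Genes called in both steps are purple and named, with 8 at the lower left, down to -3.33 for Mrps2, and Mrpl33 and Mrps21 at the upper right.

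Between stages IV and I most of the family fell under IL-33. Under IL-33, 51 of the 78 were lower in stage IV than in stage I (65.4%, against 22.9% of all tested genes) and 1 was higher (1.28%, against 21.2%), with a median log2 fold change of -0.99, against -0.03 over all genes. Without the second IL-33 stage I library 35 were lower (44.9%, against 19.8% of all genes then tested) and 2 higher, with a median of -0.60. In steady state 21 were lower (26.9%, against 22.7% of all tested genes) and 4 higher (5.13%, against 21.1%), with a median of -0.27. With library totals as the scaling the steady state split was 35 lower and 2 higher, with no share over all tested genes given for that fit. The difference between the conditions over this whole range was not tested. Lower in both conditions were 20 genes, a count given without the share over all tested genes. Mrpl45 passed in steady state alone, with a log2 fold change of -0.68 ± 0.31 under IL-33 (SE; adjusted p = 0.0806) and -1.04 ± 0.32 in steady state (SE; adjusted p = 0.0104).

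Under IL-33, Mrps18b had 5.99, 6.79 and 9.91 CPM in stage IV and 47.3, 81 and 52.2 CPM in stage I (log2 fold change -2.99 ± 0.39 SE, adjusted p = 1.66e-06). Mrpl38 had 9.46, 7.06 and 7.46 CPM in stage IV and 49.3, 79 and 49.7 CPM in stage I (-2.89 ± 0.35 SE, adjusted p = 7.11e-07). Neither gene overlapped between the 2 stages in any library. Mrps10, Mrpl12 and Mrps7, which binds the head of the small subunit, fell by 2.68 ± 0.32, 2.58 ± 0.35 and 1.84 ± 0.24 on the log2 scale (SE; adjusted p = 5.94e-07, 2.71e-06 and 2.18e-06). Mrpl11, Mrps12, Mrpl3 and Mrps36 fell by 1.71, 1.38, 1.12 and 1.12 (adjusted p = 0.00013, 0.00128, 0.00236 and 0.0079), and Mrps36 did not pass without the second IL-33 stage I or the first IL-33 stage IV library. Of the 51 large subunit genes 32 fell under IL-33 and of the 26 small subunit genes 18, with medians of -0.82 and -1.34. Of the 48 genes with a bacterial counterpart 32 fell, and of the 29 without 18, with medians of -0.96 and -0.98.

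In steady state the same range was led by Mrps27, with 4.69, 4.80 and 1.65 CPM in stage IV and 39, 33 and 33.9 CPM in stage I (log2 fold change -3.23 ± 0.51 SE, adjusted p = 2.45e-05). Mrps7, Mrps10, Mrps18b and Mrps28 followed, with log2 fold changes of -1.38, -1.54, -1.76 and -2.04 and adjusted p between 7.98e-05 and 0.000701. The 5 genes with the smallest adjusted p among the falls were thus all of the small subunit. Mrpl33 had 499, 474 and 824 CPM in stage IV and 235, 218 and 172 CPM in stage I (1.52 ± 0.26 SE, adjusted p = 7.12e-05), and was the 1 gene that rose in both conditions. Under IL-33 its log2 fold change was 1.02 ± 0.26 (SE; adjusted p = 0.00282). Mrps21, Mrps16 and Mrpl30 rose in steady state by 1.21, 0.86 and 0.95, and without the third steady state pool Mrps16 and Mrpl30 had adjusted p = 0.0974 and 0.0759.

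**Figure D4:**
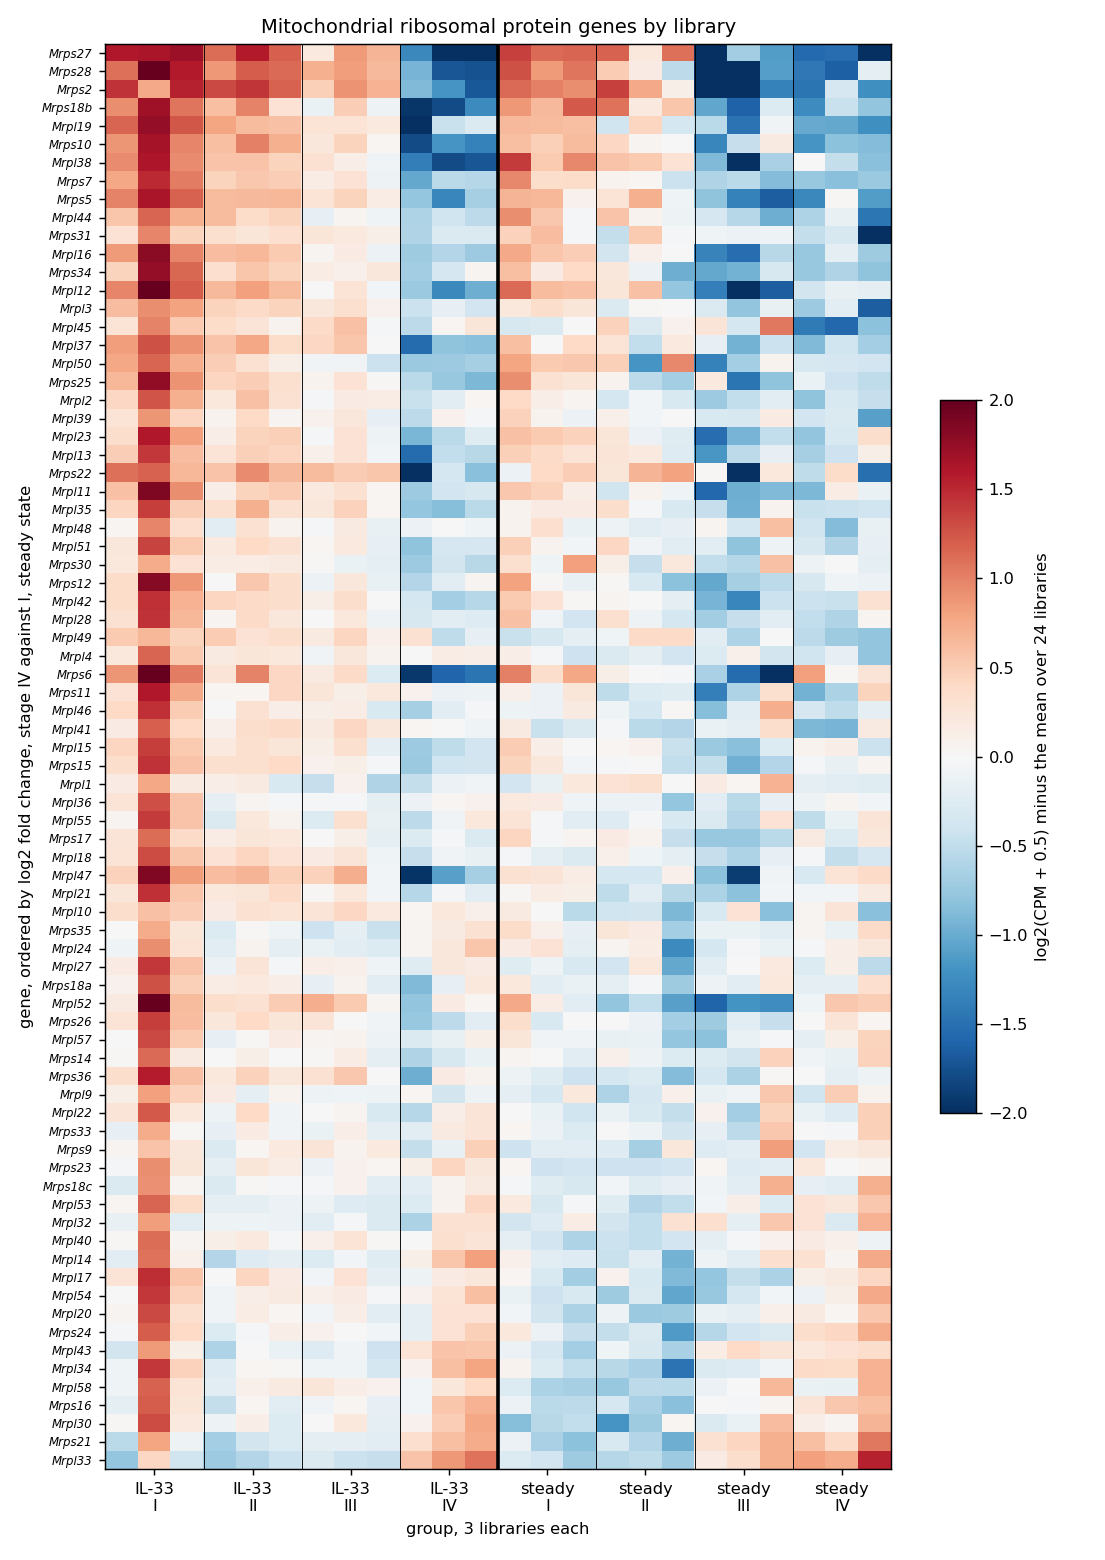
Log2(CPM + 0.5) of the 78 genes minus each gene's mean over the 24 libraries, 1 column per library, IL-33 stages left of steady state stages, genes ordered by their log2 fold change between stages IV and I in steady state. Mrps27, Mrps28 and Mrps2 at the top are mostly low (blue, colours ending at a difference of 2) in IL-33 stage IV and in steady state stages III and IV, Mrpl33 and Mrps21 at the bottom are high (red) there, and the second IL-33 stage I library is red for all 78 genes.

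Against steady state, the IL-33 levels of the family lay higher at the earliest stage, but how many genes passed the test there depended on single libraries. In stage I all 78 genes had a higher fitted level under IL-33 than in steady state, with a median log2 difference of 0.68, against 0.02 over all genes, and with library totals as the scaling 76 did. Past the test were 8 genes, all higher (10.3%, against 2.71% of all tested genes higher and 1.36% lower). An unadjusted p under 0.05 was reached by 49, with no share over all tested genes given for that threshold. For 32 of the 78 members the libraries of the 2 conditions did not overlap, with IL-33 above, against 16.1% of all tested genes. Mrpl18, a large subunit protein that binds 5S ribosomal RNA in bacteria, had 232, 476 and 282 CPM under IL-33 and 188, 168 and 157 CPM in steady state (log2 fold change 0.95 ± 0.22 SE, adjusted p = 0.0211). Mrpl17, Mrpl40 and Mrpl20 of the large subunit were higher by 1.16 ± 0.28, 0.89 ± 0.24 and 1.01 ± 0.27 on the log2 scale (SE; adjusted p = 0.0246, 0.0385 and 0.0395). Mrps36 had 43.5, 103 and 51.3 CPM under IL-33 and 31.7, 28.7 and 25.4 CPM in steady state (1.20 ± 0.33 SE, adjusted p = 0.0403). The other 3 were Mrpl30, Mrpl49 and Mrpl58. Without the second IL-33 stage I library the count was 0 and the median 0.34, without the second or the third steady state stage I library it was 0, without the first IL-33 stage I library it was 24, without the third steady state pool it was 1, and with DESeq2 it was 15. The share over all tested genes is not given for these fits.

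In stage II no member passed the test, against 4.06% of all tested genes higher under IL-33 and 3.97% lower. The fitted level was higher under IL-33 for 74 of the 78, with a median log2 difference of 0.40, and 19 were higher and 0 lower at an unadjusted p under 0.05. The share of all tested genes at that unadjusted threshold is not given. The libraries did not overlap, with IL-33 above, for 37 of the 78 members, against 20% of all tested genes. DESeq2 called 0 members.

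Stage III held the largest count of single-stage differences, with 20 members higher under IL-33 (25.6%, against 18.5% of all tested genes) and 1 lower (1.28%, against 14.9%). The median log2 difference was 0.46, against 0 over all genes. Mrps2 had 19.3, 26.2 and 22.7 CPM under IL-33 and 2.19, 0.114 and 5.09 CPM in steady state (log2 fold change 3.19 ± 0.61 SE, adjusted p = 0.00034). Mrps28 had 74.2, 80.5 and 70.8 CPM under IL-33 and 9.59, 5.26 and 20.7 CPM in steady state (2.66 ± 0.45 SE, adjusted p = 0.000107). Mrpl12 had 58.4, 71.3 and 56.7 CPM under IL-33 and 22.5, 10.7 and 18.3 CPM in steady state (1.85 ± 0.34 SE, adjusted p = 0.000256). The IL-33 libraries exceeded all steady state libraries for each of these genes. Mrpl52 and Mrps5 were higher by 1.87 ± 0.43 and 1.56 ± 0.35, Mrpl11, at the base of the large subunit stalk, by 1.32 ± 0.32, and Mrps18b by 1.01 ± 0.37 (SE; adjusted p = 0.00182, 0.00136, 0.00264 and 0.0372). Mrpl33 was the 1 gene lower, with 232, 211 and 204 CPM under IL-33 and 317, 360.0 and 462 CPM in steady state (-0.82 ± 0.26 SE, adjusted p = 0.0186). This comparison shares the steady state stage III libraries with the steady state step from II to III, so the 2 are not independent. Without the second IL-33 stage III library 11 members were called, without the second steady state stage III library 13, and with library totals 36. These counts are given without the share over all tested genes.

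Other gene groups moved in stage III as well. The 17 proliferation genes summed to 4728 to 5691 CPM in IL-33 stage III libraries and to 640.1 to 941.9 CPM in steady state stage III libraries, and all 17 were called higher under IL-33. The 10 neutrophil markers (S100a8, Camp and others) summed to 2639 to 3857 CPM under IL-33 and to 18728 to 22876 CPM in steady state, all 10 called lower under IL-33. Of the 10 monocyte and macrophage markers 8 were called lower under IL-33 and 1 higher. The part of cycling cells and of other cell types in the differences of the mitochondrial ribosomal protein genes was not tested.

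By stage IV the conditions differed in 3 members, 1 higher under IL-33 (1.28%, against 7.48% of all tested genes) and 2 lower (2.56%, against 4.68%). The median log2 difference was -0.10, and it was 0.03 without the first IL-33 stage IV library and -0.20 without the third. Mrpl45 had 52.2, 77.6 and 89.2 CPM under IL-33 and 28, 25.1 and 42.7 CPM in steady state (log2 fold change 1.20 ± 0.32 SE, adjusted p = 0.0145). Mrps6 had 1.45, 1.97 and 2.18 CPM under IL-33 and 12.6, 7.02 and 8.37 CPM in steady state (-2.31 ± 0.52 SE, adjusted p = 0.00486). Mrpl38 had 9.46, 7.06 and 7.46 CPM under IL-33 and 25.8, 18.2 and 14.1 CPM in steady state (-1.28 ± 0.34 SE, adjusted p = 0.0147). The 2 conditions did not overlap for any of these genes.

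Averaged over the 4 stages, 38 members were higher under IL-33 (48.7%, against 21.4% of all tested genes) and 0 lower (0%, against 16.7%). The median log2 difference was 0.36, against 0.05 over all genes. Without the second IL-33 stage I library 29 were higher (37.2%, against 19.7% of all genes then tested) and 0 lower, with a median of 0.27. Cell type markers moved as well, with all 10 neutrophil markers and 8 of the 10 monocyte and macrophage markers called lower under IL-33 in this average. Neutrophil markers summed to 1246 to 3906 CPM under IL-33 and 15983 to 25326 CPM in steady state in stage II, and to 5817 to 9926 CPM under IL-33 and 9257 to 25450 CPM in steady state in stage IV. Eosinophil markers in stage IV summed to 22454 to 29189 CPM under IL-33 and 4635 to 7655 CPM in steady state. The part of these markers' cells in the differences of the 78 genes was not tested. The 5 with the smallest adjusted p were Mrps28 (0.97 ± 0.21), Mrpl2 (0.54 ± 0.12), Mrps34 (0.70 ± 0.16), Mrpl4 (0.51 ± 0.12) and Mrpl49 (0.53 ± 0.12, all log2 ± SE), with adjusted p between 0.00105 and 0.00164. Mrpl2 lies in the peptidyl transferase region of the large subunit and Mrpl4 near its exit tunnel. Mrps12, at the decoding centre of the small subunit, and Mrpl3, near the peptidyl transferase centre, were higher by 0.54 ± 0.16 and 0.52 ± 0.14 (SE; adjusted p = 0.00963 and 0.00527), the call of Mrps12 being lost without the third steady state pool. Mean levels were higher under IL-33 for 78, 74, 56 and 32 members in stages I, II, III and IV, and for 22 in all 4. Of the 3 relatives of bacterial S18, none passed in this average, with log2 differences of 0.22 ± 0.15 for Mrps18a, 0.11 ± 0.18 for Mrps18b and 0.04 ± 0.15 for Mrps18c (SE; adjusted p = 0.246, 0.669 and 0.874).

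**Figure D5:**
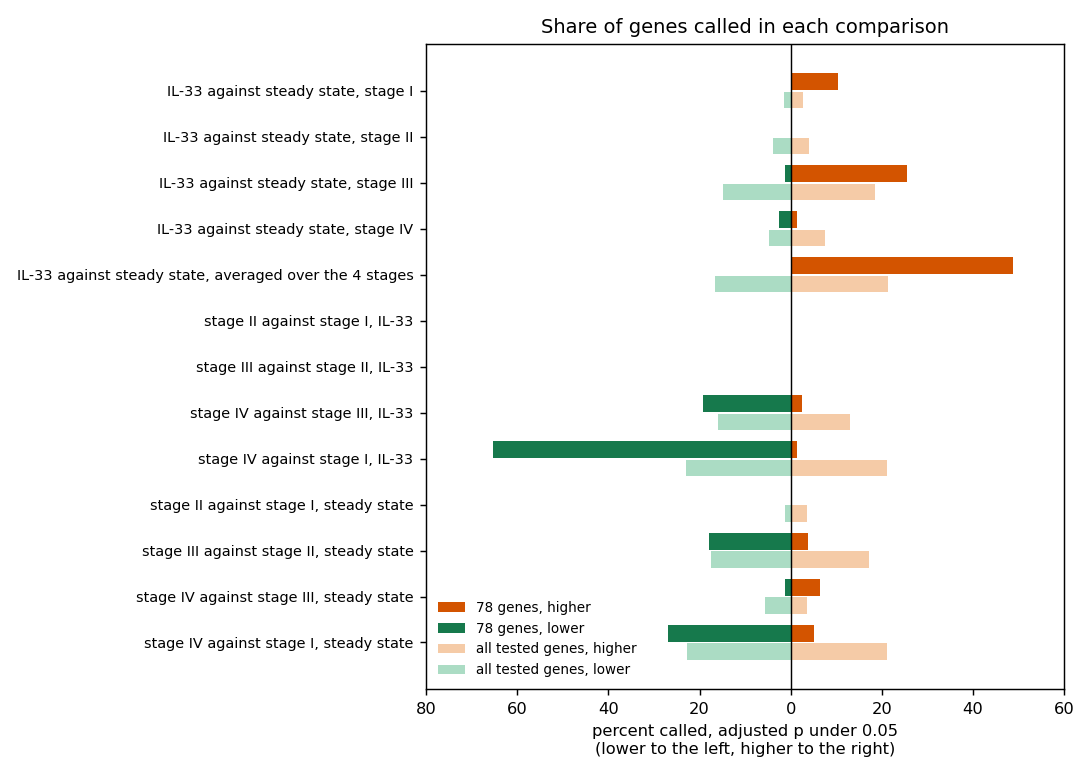
Percent of genes called higher (right) and lower (left) at an adjusted p under 0.05 in each comparison, for the 78 genes (dark) and for all 12743 tested genes (light). The dark bars reach furthest for IL-33 stage IV against I (65.4% lower, against 22.9% of all genes) and for IL-33 against steady state averaged over stages (48.7% higher, against 21.4%).

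Whether a step differed between the conditions was tested directly, as the log2 change under IL-33 minus that in steady state. The step from I to II differed for no gene of the 78 and for no tested gene (0% in either direction), and at an unadjusted p under 0.05 for 0 members upward and 1 downward. For the step from II to III, 1 member was higher (1.28%, against 4.49% of all tested genes) and 0 lower (0%, against 2.12%). That member was Mrps2, whose log2 fold change was -0.62 ± 0.54 under IL-33 and -3.33 ± 0.61 in steady state, a difference of 2.70 ± 0.80 (SE; adjusted p = 0.0426). The call of Mrps2 was lost in 14 of the 30 alternative fits. For the step from III to IV, 18 members were lower (23.1%, against 10.3% of all tested genes) and 1 higher (1.28%, against 8.44%). The stage III libraries of this step also enter the step from II to III and the stage III comparison of the conditions. These results are therefore not independent. Mrps6 changed by -2.01 ± 0.52 under IL-33 and by 1.93 ± 0.52 in steady state, a difference of -3.93 ± 0.73 (adjusted p = 0.000584). Mrpl12 changed by -1.07 ± 0.33 under IL-33 and by 1.54 ± 0.34 in steady state, a difference of -2.62 ± 0.48 (adjusted p = 0.000488). Mrpl38, Mrps18b and Mrpl11 differed by -2.52, -1.89 and -1.56 (adjusted p = 0.000677, 0.0129 and 0.0163). Mrpl45 was the member with a higher change under IL-33, by 1.29 ± 0.44 (SE; adjusted p = 0.0431), a call lost in 16 of the 30 alternative fits. Without the second steady state stage IV library or the second IL-33 stage III library 12 members were called, all lower.

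No comparison called 13 of the members, namely Mrps9, Mrpl22, Mrpl32, Mrpl14, Mrpl43, Mrpl24, Mrpl9, Mrpl1, Mrps18c, Mrps33, Mrpl53, Mrps35 and Mrpl48. The share of all tested genes called in no comparison is not given, so this count describes the members alone. Mrps18c, a small subunit relative of bacterial S18, averaged 129 ± 58.6, 97.1 ± 11.1, 100.3 ± 11.1 and 105 ± 14.1 CPM in stages I, II, III and IV under IL-33 (SD, n = 3 each). In steady state it averaged 90.7 ± 10.2, 93.4 ± 6.37, 119 ± 44.3 and 117 ± 45.9 CPM in the same order (SD, n = 3 each). Its relative Mrps18b averaged 60.2 ± 18.2, 39 ± 9.84, 26.6 ± 7.06 and 7.56 ± 2.07 CPM under IL-33 and 47.5 ± 9.66, 39.2 ± 12.6, 13.2 ± 6.49 and 14 ± 4.02 CPM in steady state. Mrps18a, the relative in the large subunit, fell between stages IV and I under IL-33 by 0.92 ± 0.29 on the log2 scale (SE; adjusted p = 0.0141), and without the second IL-33 stage I library or the first IL-33 stage IV library it did not pass. Mrps30 had a log2 fold change of -0.98 ± 0.29 across the same range under IL-33 (adjusted p = 0.0077) and of -0.49 ± 0.28 in steady state (SE; adjusted p = 0.167).

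Genes of related lists were read against the share of all tested genes that fell, 16% between stages IV and III under IL-33 and 17.4% between stages III and II in steady state. The shares of assembly and translation factor genes that fell were close to these. Between stages IV and III under IL-33, 10 of 17 mitochondrial tRNA synthetase genes fell (58.8%) and 0 rose, and between stages III and II in steady state 7 fell (41.2%) and 0 rose. Sars2, the seryl-tRNA synthetase, had log2 fold changes of -2.49 ± 0.38 in the IL-33 step and -1.98 ± 0.38 in the steady state step (SE; adjusted p = 3.71e-05 and 0.000353). Of 24 genes for the assembly of the mitochondrial ribosome, 5 fell (20.8%) and 0 rose in the IL-33 step, and 4 fell (16.7%) and 2 rose in the steady state step. Mrm3, which methylates the large ribosomal RNA of mitochondria, changed by -4.65 ± 0.64 under IL-33 and by -1.91 ± 0.53 in steady state (SE; adjusted p = 9.82e-06 and 0.00801). Of 16 translation factor genes, 3 fell in the IL-33 step (18.8%) and 2 in the steady state step (12.5%), and 0 rose. Tsfm, an elongation factor, changed by -1.32 ± 0.35 under IL-33 and by -1.67 ± 0.36 in steady state. Lrpprc, which stabilises mitochondrial messenger RNAs, changed by -1.89 ± 0.37 under IL-33 and by -1.28 ± 0.37 in steady state (log2 ± SE). Among 19 genes of import and folding 9 fell in each step (47.4%), with 1 rise under IL-33 and 2 in steady state. Hspa9, the matrix chaperone that pulls proteins in, changed by -1.48 ± 0.26 under IL-33 and by -1.71 ± 0.27 in steady state.

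Proteins of the mitochondrial ribosome with other symbols showed both directions. Of 5 such genes, 1 fell and 1 rose in each of the 2 steps. Ptcd3, a small subunit protein, had a log2 fold change of -1.80 ± 0.37 in the IL-33 step (adjusted p = 0.000747) and of -0.59 ± 0.36 in the steady state step (SE; adjusted p = 0.212). Gadd45gip1, of the large subunit, was the gene that fell in steady state (-0.89 ± 0.31 SE, adjusted p = 0.0319). Aurkaip1, of the small subunit, rose by 0.66 ± 0.24 under IL-33 and by 0.93 ± 0.24 in steady state (SE; adjusted p = 0.0387 and 0.00437). Larger shares of 2 other lists fell in these steps. Of 25 genes for the making of cytosolic ribosomes, 20 fell between stages IV and III under IL-33 and 22 between stages III and II in steady state, with medians of -1.79 and -1.86. All 17 proliferation genes fell in both steps, with medians of -3.48 and -2.65. By contrast, among the 77 cytosolic ribosomal protein genes 10 rose (13%, against 13.1% of all tested genes) and 0 fell in the IL-33 step, and 3 rose (3.9%, against 17.2%) and 2 fell (2.6%) in the steady state step. Among the 78 nuclear oxidative phosphorylation genes, whose products work beside the proteins made on mitochondrial ribosomes, 6 rose (7.69%) and 7 fell (8.97%) in the IL-33 step and 18 rose (23.1%) and 4 fell (5.13%) in the steady state step.

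Between stages IV and I, 2 oxidative phosphorylation genes were higher and 23 lower under IL-33 (2.56% and 29.5%, against 21.2% and 22.9% of all tested genes), and 25 were higher and 8 lower in steady state (32.1% and 10.3%, against 21.1% and 22.7%). Without the second IL-33 stage I library 9 were higher and 12 lower under IL-33, with a median log2 fold change of -0.03. In the fit of all libraries their median was -0.38 under IL-33 and 0.43 in steady state, against -0.99 and -0.27 for the mitochondrial ribosomal protein genes. In the average of IL-33 against steady state, 66 of the 77 cytosolic ribosomal protein genes were higher and 1 lower, and 25 of the 78 oxidative phosphorylation genes were higher and 0 lower, with medians of 0.63 and 0.23 (85.7% and 32.1% higher, against 21.4% of all tested genes). Across the 78 members, Spearman's rho between mean level and log2 fold change was 0.39 for stages IV against III under IL-33 and 0.35 for stages III against II in steady state, a description over genes that share the same libraries.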

How the data were processed

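Full-length cDNA (SMART-Seq v4) of sorted eosinophils was sequenced in 24 libraries, 3 in each of 8 groups. The authors deposited 1 table of raw read counts per gene and library. STAR 2.6.1a, DESeq2 and the mm10 genome are named in the submitters' processing notes, and what program, strand option and gene models produced the counts is not given in the sources used here. The 2 entries that name no gene (reads in no feature, 9.19% to 30.5%, and ambiguous reads, 1.73% to 2.60%) were kept out of library sizes and tests. Intervals and p-values cover the spread between these libraries, described as biological triplicates.

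Counts were fitted in edgeR 4.0.16 (limma 3.58.1, R 4.3.3) by the quasi-likelihood test, with 1 coefficient per group over all 24 libraries, TMM scaling and filterByExpr, leaving 12743 genes, and p-values were adjusted by Benjamini and Hochberg over all of them. A gene was called at an adjusted p under 0.05. SE is the absolute log2 fold change over the square root of the F statistic. CPM levels carry the TMM scaling, and a median or count over the members is a description. Counts at an unadjusted p under 0.05 have no share over all tested genes beside them, so they cannot be set against other genes. The same holds for counts from alternative fits wherever no such share is printed. The scripts were tested on simulated data. Tables and figures used Python 3.11.15, pandas 2.3.3 and matplotlib 3.10.9. Transcript lengths and overlaps came from GENCODE M21 (GRCm38) and promoters from RefSeq (GRCm38.p6).

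The alternatives were DESeq2 1.42.0, relative log expression factors, library totals, no filter, the replicate number as a block, leaving out the third steady state pool, and leaving out each of the 24 libraries. Replicate numbers come from the labels, and the block gave each number the same effect in both conditions. It therefore did not model pairing specific to a condition. Deviations of same-numbered libraries correlated at over 0.1 in every pair for steady state stages II against I (0.12 to 0.30), IV against III (0.11 to 0.22) and IV against I (0.12 to 0.19) and for IL-33 stages II against I (0.15 to 0.24) and III against II (0.13 to 0.24), and not in the other comparisons.

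Named are, per comparison, up to 5 members passing in each direction with the smallest adjusted p (3 for differences between steps), all members of a minority direction of up to 5, a panel kept whatever its result (Mrpl12, Mrps12, Mrpl3, Mrpl11, Mrpl45, Mrps18a, Mrps18b, Mrps18c, Mrps30, Mrps36), the extremes of level, and up to 3 genes of each other list. Other members named were chosen after their values were seen. The members and lists were chosen with earlier results of these data known.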

Additional observations from a re-analysis of the deposited data

Results flagged for a closer look

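The change between 2 stages differed between the conditions, by the test of the difference itself, for 1 of the 78 genes in the step from stage II to III and for 19 in the step from III to IV. From II to III 1.28% of the members were higher, below the 4.49% of all tested genes, and 0% lower, against 2.12%. From III to IV 23.1% were lower, against 10.3%, and 1.28% higher, against 8.44%. Both steps use the same stage III libraries, so their differences are not independent. Given here are the 7 differences that the naming rule picked. The other 13, all in the step from III to IV and all lower under IL-33, lay between -3.51 (Mrps2) and -1.11 (Mrps26) and include Mrps28 (-3.15), Mrpl47 (-2.55), Mrpl52 (-2.37) and Mrps27 (-2.07). The values are the log2 change under IL-33 minus that in steady state. For the step from stage II to III the difference was 2.70 for Mrps2. For the step from stage III to IV it was -3.93 for Mrps6, -2.62 for Mrpl12, -2.52 for Mrpl38, -1.89 for Mrps18b, -1.56 for Mrpl11 and 1.29 for Mrpl45. Among the 30 alternative fits, Mrps2 lost its call in 14, Mrpl45 in 16 and Mrpl11 in 1, without the second steady state stage IV library.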

How the results depend on the processing

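No named gene changed its direction of call under any of the 30 alternative fits. With library totals as the scaling, which shifted the median of all genes by -0.33 (steady state III against II), -0.37 (steady state IV against I), -0.21 (IL-33 IV against III), -0.30 (IL-33 IV against I), 0.27 (IL-33 against steady state, stage III) and -0.39 (difference of the steps III to IV), the counts of members called were 1 for steady state II against I, 29 for III against II and 11 for IV against III, 28 for IL-33 IV against III, 1 and 36 for IL-33 against steady state in stages I and III, and 4 for the difference of the steps II to III. DESeq2 called 1 member for IL-33 II against I and 15 for IL-33 against steady state in stage I. Without the third steady state pool these were 1 for IL-33 against steady state in stage I and 4 for the difference of the steps II to III. With the replicate block 1 member was called for IL-33 against steady state in stage II, and no other count moved by over 1.5 times. Leaving out each library in turn gave 11 to 19 members for steady state III against II (11 without the first stage II or second stage III library), 3 to 9 for IV against III (3 without the first or second stage III library), 11 to 24 for IL-33 IV against III (11 without the second stage III library), 0 to 24, 0 to 1, 11 to 27 and 1 to 4 for IL-33 against steady state in stages I to IV, and 0 to 2 and 12 to 21 for the differences of the steps II to III and III to IV. The medians of the members ranged, leaving out each library, from -0.37 to -0.18 (II against I), -0.31 to -0.05 (III against II), 0.07 to 0.34 (IV against III) and -0.28 to -0.11 (IV against I) in steady state, from -0.76 to -0.18, -0.23 to -0.09, -0.39 to -0.19 and -1.16 to -0.60 in the same order under IL-33, and from 0.34 to 0.89, 0.32 to 0.47, 0.36 to 0.53 and -0.20 to 0.03 for IL-33 against steady state in stages I to IV. The causes of these shifts were not tested. No share of all tested genes is given beside the counts of these fits, so the counts describe the members alone. Genes of few counts, such as Mrps2 with 1 count in its lowest library, are limited by depth.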
